A study of Homo sapiens with 6 samples.

Results

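A group of 9 transcriptional regulators that sit at the nuclear end of the ERK pathway was followed at the RNA level in HEK293 cells, an established human line from embryonic kidney, after inhibition of the lipid kinase PI4KA. The set was chosen by name, as the 9 rows of the count table whose symbol was ETV1, ETV4, ETV5, ERF, ETV3, CIC, ELK1, ELK3 or ELK4, out of 63140 genes listed. Each symbol occurred in 1 row, and all 9 passed the filter on low counts that left 16754 genes for testing. The control group was 3 libraries from cultures given the solvent dimethyl sulfoxide (DMSO). The treated group was 3 libraries from cultures given 100 nM GSK-A1 for 24 h. The compound GSK-A1 inhibits PI4KA, the kinase that supplies phosphatidylinositol 4-phosphate to the plasma membrane. Per the labels, the cells were confluent and grew in medium with serum, and the labels give no genetic change in either group. The replicates were labelled as biological, all from 1 cell line, and whether they were separate cultures handled on separate days was not given in the sources used here.

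ETV1, ETV4 and ETV5 form the PEA3 subfamily of ETS transcription factors, activators that bind DNA through a conserved ETS domain and whose genes are switched on downstream of growth factor receptors and ERK. CIC (capicua) is not an ETS protein but a repressor with an HMG box that holds PEA3 genes silent until ERK signalling relieves it. ERF and ETV3 are ETS-domain repressors, and ERF leaves the nucleus when ERK phosphorylates it. ELK1, ELK3 and ELK4 are the ternary complex factors, which dock on serum response factor (SRF) at immediate early genes and are phosphorylated by ERK. These controls act largely on proteins, which RNA counts do not measure. The label of the set names ETS factors and ETS repressors, and CIC and the ternary complex factors are in it by the list of names.

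Promoter sequence was read for the members from RefSeq windows that run from 250 bases before to 50 bases after each annotated start (GRCh38.p14). The table held windows for 7 of the 9 members, 17 windows in all, and none for ETV4 or ETV5. Both strands were searched for the CIC octamers TGAATGAA and TGAATGGA (which share their first 6 letters), the ETS motif CCGGAAGT, the AP-1 motif TGANTCA and the CArG box bound by SRF. The octamer TGAATGGA was in 1 of the 6 ETV1 windows and in 1 of the 3 CIC windows. It was in 1.03% of all 35116 windows and in at least 1 window of 1.27% of all 27305 genes. CCGGAAGT was in 1 of the 17 member windows, that of ELK4, against 4.14% of all windows and 4.95% of all genes. TGAATGAA, TGANTCA and the CArG box were in 0 of the 17 member windows, against 1.65%, 7.71% and 1.29% of all windows. The 250 bases before the start are shown for the ETV1 and ELK4 windows that hold a match, because these 2 members rose with GSK-A1. In the ETV1 stretch (chr7:13991426-13991675, minus strand) the capitals mark TGAATGGA at positions -125 to -118 from the start, and in the ELK4 stretch (chr1:205632012-205632261, minus strand) they mark CCGGAAGT at -22 to -15. Both read 5′ to 3′ on the gene's strand and lie just outside the gene.
ETV1 promoter: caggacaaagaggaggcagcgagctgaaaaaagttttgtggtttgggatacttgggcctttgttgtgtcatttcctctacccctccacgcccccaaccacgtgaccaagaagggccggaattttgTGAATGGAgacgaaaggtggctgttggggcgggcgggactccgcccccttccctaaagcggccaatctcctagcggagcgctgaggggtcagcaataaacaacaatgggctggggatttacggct
ELK4 promoter: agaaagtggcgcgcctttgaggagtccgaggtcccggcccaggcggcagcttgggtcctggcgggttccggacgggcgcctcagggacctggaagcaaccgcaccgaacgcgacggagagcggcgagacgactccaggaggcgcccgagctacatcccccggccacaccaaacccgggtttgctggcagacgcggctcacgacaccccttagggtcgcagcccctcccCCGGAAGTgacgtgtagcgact
In the CIC window the octamer lay on the opposite strand across the start, from position -7 to 1, and read TCCATTCA on the gene's strand. These matches describe letters in a window and say nothing about whether a factor was bound.

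Total counts per library ranged from 33040178 to 47777233, so that each member was read at 457 to 5570 counts per library. Values are given in CPM, the counts of a gene over the TMM-scaled library total, in the usual per-million unit. GSK-A1 replicate 2 stood furthest from its group, with a mean Pearson correlation of 0.995 to the other GSK-A1 libraries across tested genes and the lowest share of mitochondrial counts, 4.04% against 5.12% to 5.68% in the other libraries. Of 8 genes usual in HEK293, 7 had a mean of at least 1 CPM, and NEFM did not. Of 14 markers of blood, endothelium, liver, fibroblasts and muscle, COL1A1 and PDGFRA reached 1 CPM and HBB was at 0 in every library. The 14 summed to 10.1 to 11.5 CPM with DMSO and 8.03 to 9.74 CPM with GSK-A1.

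With GSK-A1, ETV4, ETV5, ETV1 and ELK4 rose, ELK1 and CIC fell, and ERF, ETV3 and ELK3 did not pass the test. The rule for a call was an edgeR quasi-likelihood p, adjusted over all 16754 genes, of less than 0.05. It called 6 of the 9 members against 22.9% of all tested genes, 4 of them higher (12.0% of all genes) and 2 lower (10.9%). The members were chosen with earlier results of these libraries known, so counts of them are not independent evidence of an excess or a direction. At an unadjusted p under 0.05 stood the same 6 members and 35.8% of all genes. These 6 also had groups that did not overlap, as had 40.5% of all genes, 20.2% on the higher and 20.4% on the lower side. In a bulk culture, fewer cells with a transcript and less of it per cell cannot be told apart. The median log2 fold change of the 9 members was 0.024, beside -0.011 over all tested genes.

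**Figure D1:**
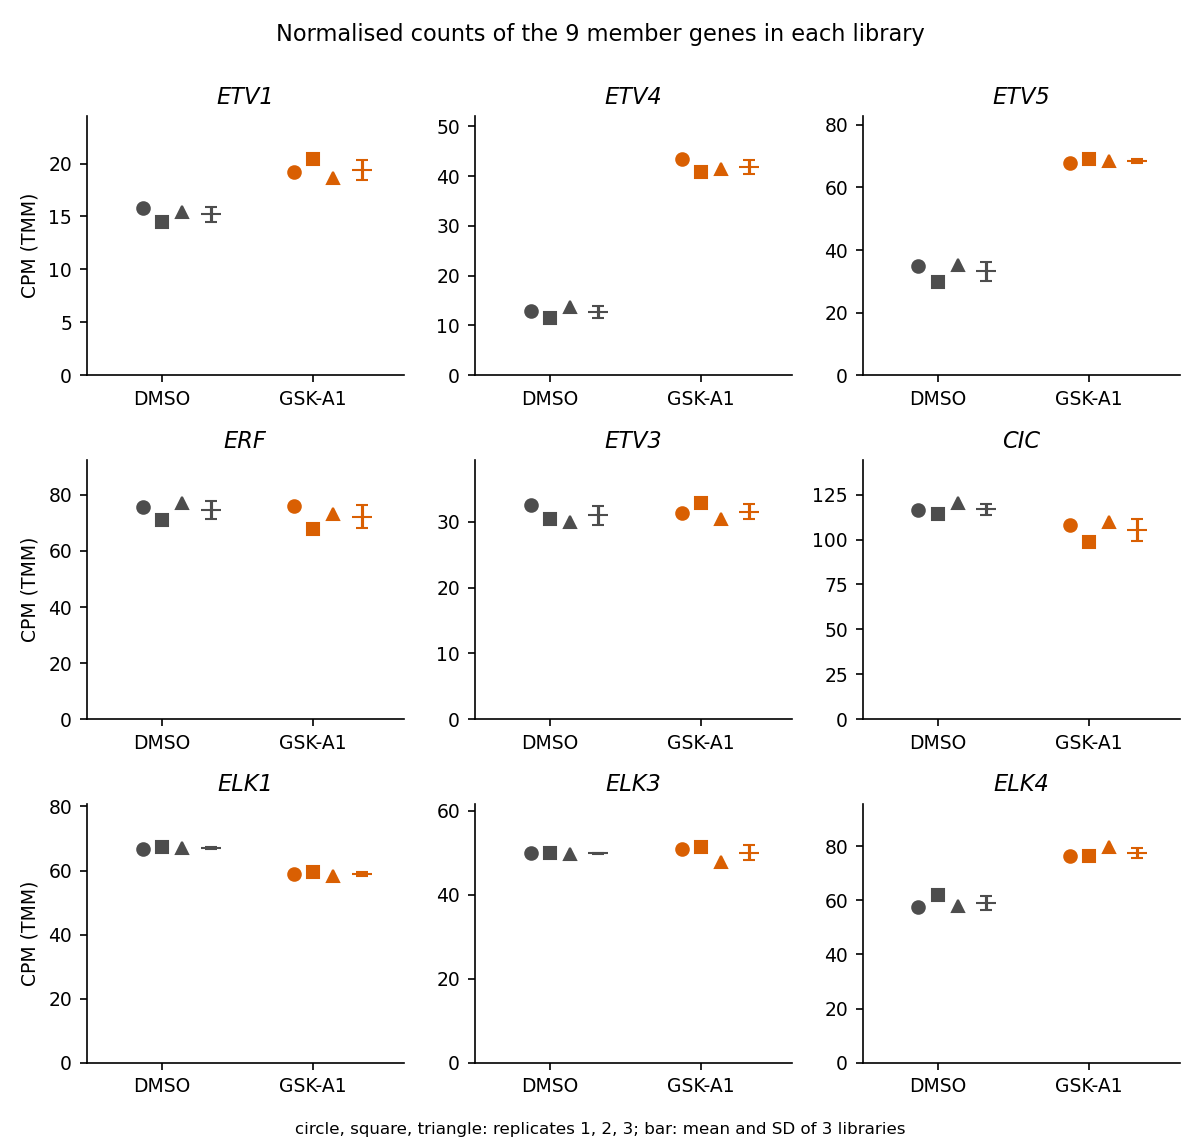
Normalised counts (CPM, vertical axes from 0) of the 9 members in each of the 6 libraries. Circles, squares and triangles are replicates 1, 2 and 3 of DMSO (grey) and GSK-A1 (orange), and bars give the mean and SD of 3 libraries. ETV4, ETV5, ETV1 and ELK4 are higher and CIC and ELK1 lower in every GSK-A1 library, while the groups overlap for ERF, ETV3 and ELK3.

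ETV4 (ENSG00000175832, chr17:43527844-43579620, GRCh38 in GENCODE 29) changed most. Its control libraries, in the order of replicates 1 to 3 kept throughout, held 12.9, 11.5 and 13.8 CPM, and its GSK-A1 libraries 43.3, 40.8 and 41.3 CPM. Every treated library lay far above every control library, and the treated libraries lay close together, with a coefficient of variation of 3.23% against 8.99% in the controls. The log2 fold change was 1.72 ± 0.062 (SE; 95% interval 1.59 to 1.85; edgeR adjusted p = 9.62e-12), a 3.30-fold rise. This was the 17th largest rise and the 5th smallest p of the 16754 genes. The opposite strand carries exons of DHX8 over 1.89% of the exonic length of ETV4, and the strand setting of the counting is not known.

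ETV5 (ENSG00000244405, chr3:186046308-186110318) followed. Its level was 34.8, 29.8 and 35.2 CPM in the DMSO libraries and 67.9, 69.0 and 68.4 CPM in the GSK-A1 libraries. The treated libraries differed from each other by far less than the controls did, with coefficients of variation of 0.781% and 9.01%. For neither ETV4 nor ETV5 was this difference in spread, from 3 libraries per group, tested. Across all tested genes the GSK-A1 libraries correlated less with their own group (mean Pearson correlation 0.995 to 0.996) than the DMSO libraries did (0.997). The log2 fold change was 1.04 ± 0.056 (SE; 95% interval 0.92 to 1.16; edgeR adjusted p = 2.46e-09), a 2.06-fold rise that ranked 60th among the rises. Exons of the neighbouring gene DGKG on the same strand covered 2.83% of its exonic length.

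ETV1 (ENSG00000006468, chr7:13891228-13991425) rose least of the subfamily. The CIC octamer shown above was in 1 of its 6 promoter windows, and ETV4 and ETV5 had no window to search. It stood at 15.8, 14.4 and 15.4 CPM with DMSO and at 19.2, 20.4 and 18.6 CPM with GSK-A1. The lowest treated library was above the highest control library. Its log2 fold change was 0.35 ± 0.061 (SE; 95% interval 0.22 to 0.48; edgeR adjusted p = 8.25e-04), a 1.27-fold rise. No annotated exon of another gene overlapped its exons, and none of its 50-base stretches occurred in transcripts of other genes.

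The 3 intervals of the PEA3 genes do not overlap each other. Ratios of counts within a library, which do not depend on the scaling between libraries, showed the same order as a description. ETV4 to ETV5 was 0.370, 0.386 and 0.392 in the DMSO libraries and 0.638, 0.591 and 0.604 in the GSK-A1 libraries. ETV4 to ETV1 went from 0.836 ± 0.053 to 2.16 ± 0.14, and ETV5 to ETV1 from 2.18 ± 0.11 to 3.53 ± 0.15 (SD, n = 3 libraries). In each ratio the 2 groups were apart, and no test was made of them.

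**Figure D2:**
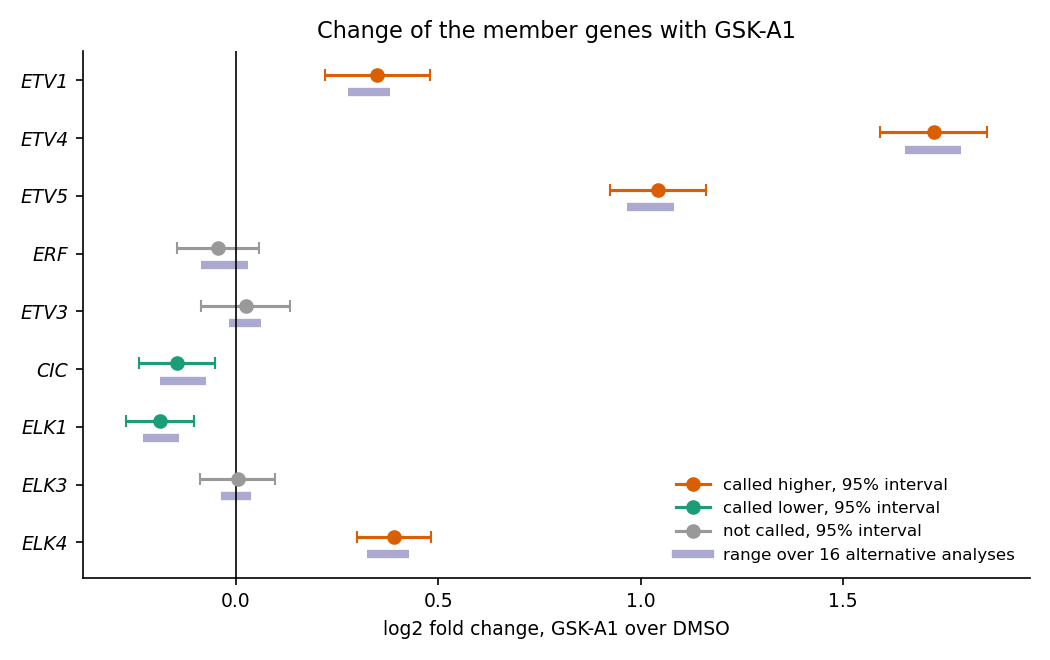
Log2 fold change of each member, GSK-A1 over DMSO, with its 95% interval (points and whiskers) and, below each, the range of the estimate over 16 alternative analyses (violet bars). ETV4 at 1.72 and ETV5 at 1.04 stand apart from the others, ETV1 at 0.35 and ELK4 at 0.39 lie above 0, CIC at -0.15 and ELK1 at -0.19 lie below it, and the intervals of ERF, ETV3 and ELK3 span 0.

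To compare levels between genes, CPM were divided by the exonic length of each gene in GENCODE 29, giving CPM per kb. In DMSO the PEA3 genes summed to 11.2, 9.83 and 11.5 CPM per kb, and in GSK-A1 to 25.7, 25.3 and 25.2. ETV5 made up 52.8% ± 0.6 of that sum in controls and 46.4% ± 0.8 with GSK-A1 (SD, n = 3). ETV4 went from 32.5% ± 0.7 to 45.6% ± 1.0 and ETV1 from 14.6% ± 0.7 to 7.94% ± 0.38. ETV4, clearly below ETV5 per length in every control library, thus reached a level that overlapped that of ETV5 in the treated ones. The exonic lengths pool all annotated transcripts, so levels between genes depend on which transcripts HEK293 cells use. The comparison of 1 gene between groups does not depend on the length used. Whether transcript use differed between the groups was not tested.

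**Figure D3:**
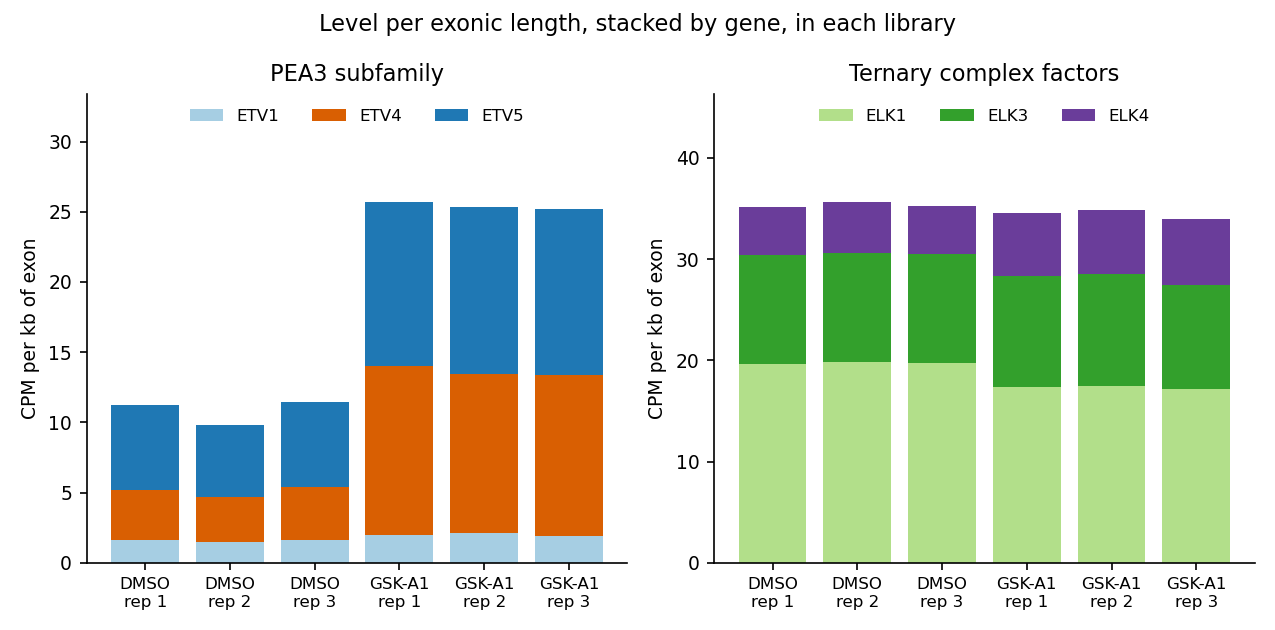
Level per exonic length (CPM per kb) in each of the 6 libraries, stacked by gene, for the PEA3 subfamily (left) and the ternary complex factors (right). The PEA3 stack is about as high in each GSK-A1 library, from 25.2 to 25.7, and higher than in DMSO, from 9.83 to 11.5, whereas the stack of ternary complex factors moves little, with more ELK4 and less ELK1.

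The repressors did not move in the direction of the PEA3 genes. CIC (ENSG00000079432, chr19:42268537-42295797) stood at 116, 114 and 120.2 CPM with DMSO and at 108, 98.4 and 109.8 CPM with GSK-A1. All 3 treated libraries were below the controls, and GSK-A1 replicate 2 was the lowest. The log2 fold change was -0.15 ± 0.044 (SE; 95% interval -0.24 to -0.052; edgeR adjusted p = 0.0258). The call was fragile: it was lost without any of the DMSO libraries or without GSK-A1 replicate 1 (edgeR adjusted p 0.0550 to 0.137), and when each library's trend with GC content was removed (-0.073, edgeR adjusted p = 0.0998). Without GSK-A1 replicate 2 the estimate was -0.094 and still called (edgeR adjusted p = 0.0201). CIC has the highest GC content of the set, 65.8% in its longest transcript.

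ERF (ENSG00000105722, chr19:42247572-42255157), a neighbour of CIC on the same chromosome, stood at 75.7, 71.2 and 77.0 CPM with DMSO and at 75.9, 67.8 and 73.1 CPM with GSK-A1. The groups overlapped, and in both groups replicate 2 was lowest. The difference was -0.045 ± 0.048 on the log2 scale (SE; 95% interval -0.15 to 0.057; edgeR adjusted p = 0.542). ETV3 (ENSG00000117036, chr1:157121191-157138474) stood at 32.5, 30.4 and 29.9 CPM and at 31.3, 32.8 and 30.5 CPM, again with overlapping groups. Its log2 fold change was 0.024 ± 0.052 (SE; 95% interval -0.085 to 0.13; edgeR adjusted p = 0.780). Of the 50-base stretches of the longest ETV3 transcript, 2.96% also occur in ETV3L, a relative that had 0 counts in all 6 libraries.

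Set against the repressors within each library, ETV4 rose from 0.170 ± 0.009 to 0.579 ± 0.019 counts per count of ERF and from 0.109 ± 0.007 to 0.397 ± 0.019 counts per count of CIC (SD, n = 3). Per exonic length ERF was nonetheless the highest member in both groups, at 22.7 ± 0.9 CPM per kb with DMSO and 21.9 ± 1.2 with GSK-A1.

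The ternary complex factors diverged. ELK4 (ENSG00000158711, chr1:205597556-205631962), also called SAP-1, whose promoter window holds the ETS motif shown above, stood at 57.6, 62.0 and 57.7 CPM with DMSO and at 76.5, 76.5 and 79.6 CPM with GSK-A1. The treated libraries lay together above all controls. The log2 fold change was 0.39 ± 0.043 (SE; 95% interval 0.30 to 0.48; edgeR adjusted p = 1.45e-05), a 1.31-fold rise. Antisense to it, exons of MFSD4A and of a pseudogene spanned 3.75% of its exonic length.

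ELK1 (ENSG00000126767, chrX:47635521-47650604) moved the other way. It stood at 66.7, 67.3 and 67.2 CPM with DMSO and at 59.0, 59.4 and 58.2 CPM with GSK-A1, with very little spread in either group. The log2 fold change was -0.19 ± 0.040 (SE; 95% interval -0.27 to -0.10; edgeR adjusted p = 0.00300), a level of 0.878 times that of the controls. ELK1 shared 0.869% of its 50-base stretches with the pseudogenes ELK2AP and ELK2BP.

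ELK3 (ENSG00000111145, chr12:96194382-96269835), known as Net and a repressor until it is phosphorylated, stood at 49.97, 49.9 and 49.7 CPM with DMSO and at 50.8, 51.3 and 47.9 CPM with GSK-A1. The treated libraries straddled the controls. Its log2 fold change was 0.0051 ± 0.044 (SE; 95% interval -0.087 to 0.098; edgeR adjusted p = 0.950). Exons of the antisense gene AC008149.1 covered 4.50% of the exonic length of ELK3. The ratio of ELK4 to ELK1 counts went from 0.881 ± 0.034 to 1.32 ± 0.04 and that of ELK4 to ELK3 from 1.19 ± 0.05 to 1.55 ± 0.10 (SD, n = 3). Because ELK1 is the most abundant of the trio per length, their sum was 35.3 ± 0.3 CPM per kb with DMSO and 34.5 ± 0.4 with GSK-A1.

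GC content differed between members. ETV1 and ELK4, called higher, had 38.1% and 38.5% GC in their longest transcripts, ETV4, which rose most, had 60.8%, and ELK1 and CIC, called lower, had 57.0% and 65.8%. Of the members not called, ERF had 64.0%, close to CIC, ETV3 had 45.4% and ELK3 had 42.7%. With each library's GC trend removed, the log2 fold change was 0.28 for ETV1, 0.32 for ELK4, -0.14 for ELK1, 1.79 for ETV4 and 1.04 for ETV5, each still called. The part of GC content in the smaller changes was not tested further.

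In controls the order of the members per exonic length was ERF, ELK1, CIC, ELK3, ETV5, ELK4, ETV3, ETV4 and ETV1. Only ELK4 and ETV3, at 4.87 ± 0.21 and 4.62 ± 0.21 CPM per kb (SD, n = 3), overlapped as neighbours in that order. With GSK-A1 the order became ERF, ELK1, ETV5, ETV4, CIC, ELK3, ELK4, ETV3 and ETV1. There ETV5 (11.8 ± 0.1), ETV4 (11.6 ± 0.4), CIC (11.1 ± 0.7) and ELK3 (10.8 ± 0.4) overlapped as neighbours in that order. Members further apart did not: the lowest ETV5 library (11.70) was above the highest CIC library (11.56). Likewise the lowest ETV4 library (11.30) was above the highest ELK3 library (11.05).

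The 8 members with an ETS domain were then placed among 29 ETS family genes, the other 21 being relatives that share this domain. In DMSO 14 of the 29 stood at 1 CPM per kb or more. ETV4 was 12th of 29 per length in controls and 7th with GSK-A1, and ETV5 went from 8th to 6th. The summed level of the family was 129.7 ± 0.8 CPM per kb in controls and 149 ± 2 in treated cultures (SD, n = 3), of which ETV4 took 2.72% ± 0.23 and 7.76% ± 0.23.

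**Figure D4:**
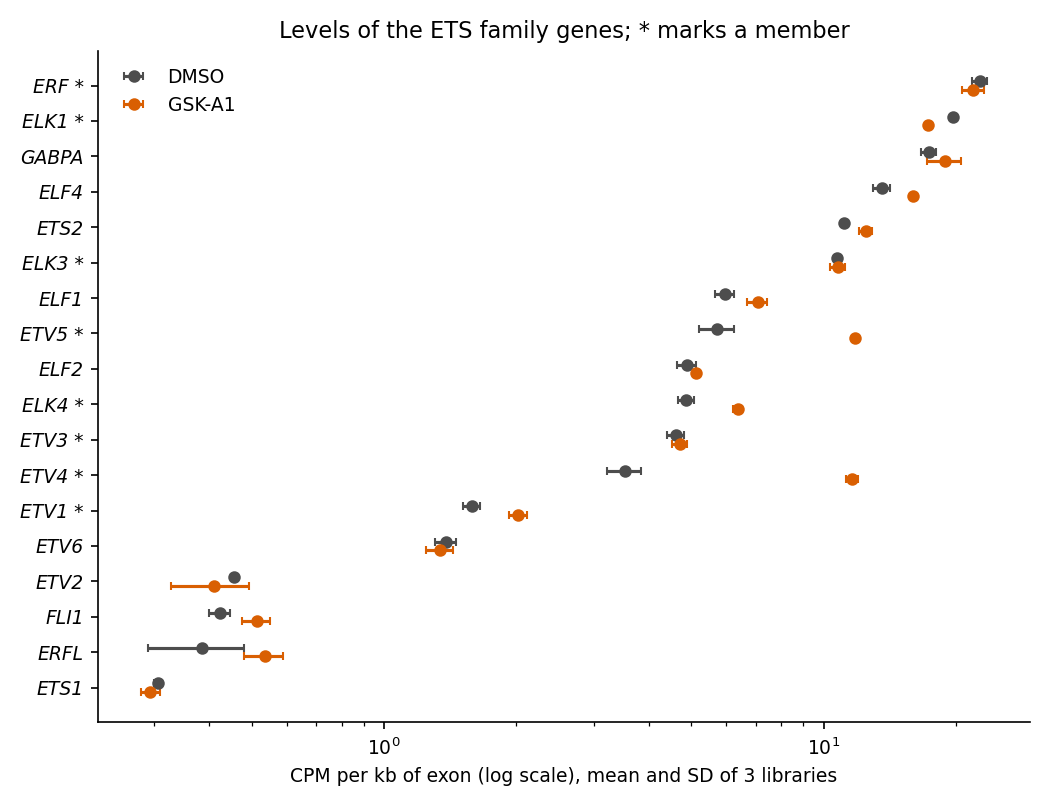
Levels of the 18 ETS family genes at 0.1 CPM per kb or more in both groups (log axis), ordered by their DMSO level, with mean and SD of 3 libraries for DMSO (grey) and GSK-A1 (orange). Among the genes drawn, ETV4 and ETV5 show the widest gaps between the groups, and the 11 family genes under 0.1 CPM per kb in at least 1 group, ETV7 among them, are not drawn.

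Of the 21 other ETS genes, 12 were tested, and 3 were called higher and 1 lower, where 12.0% of all tested genes were called higher and 10.9% lower. The count of 4 was 2 without DMSO replicate 1 and 2 without DMSO replicate 2. ELF4 rose by 0.24 ± 0.04, ELF1 by 0.25 ± 0.06 and ETS2 by 0.16 ± 0.04 (log2 fold change ± SE; edgeR adjusted p = 0.00120, 0.00458 and 0.0113). ETV7 was called lower (edgeR adjusted p = 0.0476) on 17, 13 and 9 counts with DMSO and 10, 0 and 2 with GSK-A1. Among the fits that left out 1 library this call was made only without GSK-A1 replicate 1. In the fits without DMSO replicate 1 or DMSO replicate 2, ETV7 had no value. The call was not made in limma-voom either (adjusted p = 0.0653). The call of ETS2 was lost when DMSO replicate 1, DMSO replicate 2 or the first GSK-A1 library was left out. The median log2 fold change of the 12 was 0.14, and the estimates of the 3 called higher lay below those of ETV4 and ETV5.

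Genes that the literature places under these factors were counted from lists made from general knowledge. These lists were chosen with earlier results of these libraries known, so their counts are not independent evidence of a direction. Of 16 genes known to be repressed by CIC other than the PEA3 genes, 15 were tested, 11 were called higher and 0 lower (12.0% and 10.9% of all tested genes), and the median log2 difference was 0.37. SPRY4, a feedback inhibitor of receptor signalling, stood at 8.20, 8.18 and 9.84 CPM with DMSO and at 19.6, 19.0 and 18.1 CPM with GSK-A1 (log2 fold change 1.13 ± 0.07, SE; edgeR adjusted p = 3.15e-08). GPR3, an orphan receptor, rose by 1.498 ± 0.135 on the log2 scale from a low level of 1.67 ± 0.26 CPM (SD, n = 3; edgeR adjusted p = 1.44e-06). The ERK phosphatase genes DUSP6 and DUSP4 rose by 0.70 ± 0.09 and 0.37 ± 0.05 (log2, SE; edgeR adjusted p = 7.48e-05 and 1.03e-04). Many of these genes answer to other factors as well, so the count does not single out CIC.

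Of 15 targets shared by ternary complex factors and SRF, 14 were tested, 11 were called higher and 0 lower (12.0% and 10.9% of all tested genes), and the median log2 difference was 0.47. EGR1 rose by 2.22 ± 0.06, FOS by 1.87 ± 0.08, EGR3 by 1.74 ± 0.12 and DUSP1 by 0.83 ± 0.04 (log2 fold change ± SE; edgeR adjusted p at most 3.15e-08 in these 4). Like the list for CIC, this list was chosen with earlier results of these libraries known, so it is not independent evidence of a direction. SRF itself averaged 105.9 ± 2.6 CPM in controls and 104 ± 6 after treatment (SD, n = 3; edgeR adjusted p = 0.761).

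Of 10 genes reported as PEA3 targets, 8 were tested, 4 were called higher and 0 lower (12.0% and 10.9% of all tested genes), with a median log2 difference of 0.15. CXCR4, a chemokine receptor that depends on ETV4 and ETV5 in the developing kidney, stood at 4.88, 5.28 and 5.22 CPM with DMSO and at 8.82, 7.65 and 8.41 CPM with GSK-A1 (log2 fold change 0.70 ± 0.09, SE; edgeR adjusted p = 3.83e-05). PLAU, which encodes urokinase, was read at only 13 to 15 counts per library with DMSO and 26 to 29 with GSK-A1 (1.11 ± 0.26, edgeR adjusted p = 0.00588). VIM, the filament gene vimentin, rose by 0.17 ± 0.04 and MET, the receptor of hepatocyte growth factor, by 0.13 ± 0.04 (log2, SE; edgeR adjusted p = 0.00423 and 0.0338). The call of MET was lost without any 1 of the DMSO libraries and under upper-quartile factors or library totals.

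**Figure D5:**
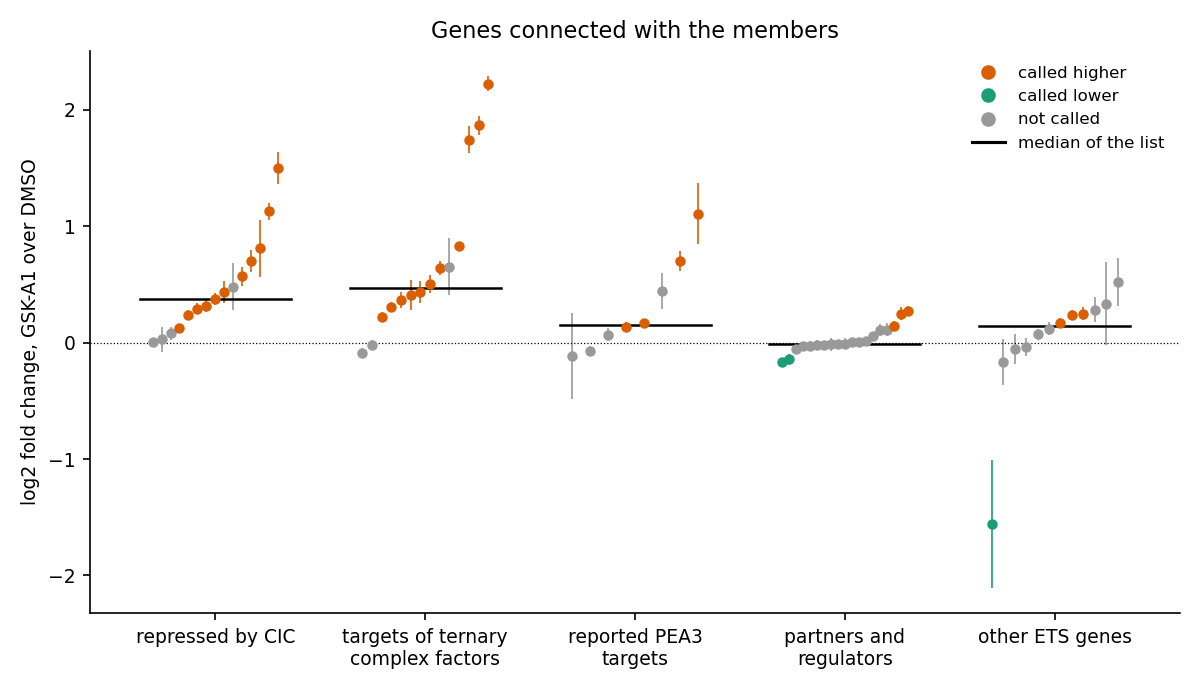
Log2 fold change of each tested gene in 5 lists connected with the members, GSK-A1 over DMSO, with its SE. Orange points were called higher, green points lower and grey points neither, and black lines mark the list medians, at 0.37 for genes repressed by CIC, 0.47 for targets of ternary complex factors, 0.15 for reported PEA3 targets, -0.0085 for partners and regulators and 0.14 for other ETS genes.

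Likeness of pattern was read over the 6 libraries as the Euclidean distance between centred log2 CPM values. The search covered 12807 genes with a symbol and a mean of at least 1 CPM, with the members left out. Nearest to ETV4 were FOS (distance 0.282), ARC (0.298) and EGR3 (0.356), all 3 of them immediate early genes. ARC went from 2.33 ± 0.20 to 7.07 ± 0.45 CPM (SD, n = 3). Nearest to ETV5 were RHEBL1 (0.127), EMILIN2 (0.159) and KLF7 (0.222), and nearest to ETV1 were RAPGEF2 (0.0369), PTPN21 (0.0417) and ARG2 (0.0462). EMILIN2 went from 14.4 ± 2.1 to 29.6 ± 0.4 CPM and RAPGEF2 from 46.1 ± 1.7 to 58.8 ± 2.2 CPM (SD, n = 3). Distances were compared within each member only. With 2 groups of 3 libraries they depend largely on the size of the change. ETV4 had the 17th largest rise, so few genes could lie near it, and nearness does not show shared regulation.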

How the data were processed

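RNA-seq read counts of 6 HEK293 libraries, 3 with DMSO and 3 with 100 nM GSK-A1, were used as deposited. The authors deposited whole-number counts without normalization, 1 column for each library. The submitters' processing notes name cutadapt 5.1, STAR 2.7.11b, featureCounts from Subread 2.1.1, DESeq2 1.38.0 and GRCh38.p13. The annotation release and the strand setting of the counting are not given in the sources used here. Per the labels, libraries were made from total RNA with a stranded kit, pooled, and run over the same lanes.

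Genes were kept by filterByExpr (smallest count 10, smallest total 15), scaled by TMM and tested in 1 fit over 16754 genes with edgeR 4.0.16 in R 4.3.3 (robust quasi-likelihood F test, Benjamini-Hochberg adjustment, threshold 0.05). Standard errors are the unshrunken coefficient over the square root of F. P-values set the difference between the groups against the spread between these libraries, which may in part be technical. Lengths, GC content and places came from GENCODE 29, not necessarily the annotation used for counting. The code was tested on simulated data. Alternatives were other library factors, filters, tests and thresholds, a GC offset (loess, span 0.3), the replicate block and leaving out each library (limma 3.58.1, DESeq2 1.42.0).

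The members and the gene lists were chosen with earlier results of these data known. Named beside the members were up to 4 called genes of each list with the smallest p-values, every called gene of the other ETS genes, and the 3 genes nearest in pattern to each PEA3 gene. SRF and MAPK3 were added after their values were seen. An item withheld for evaluation is not reported here.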

Additional observations from a re-analysis of the deposited data

How the results depend on the processing

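Over 16 alternative analyses, ETV1, ETV4, ETV5, ELK4 and ELK1 kept their direction and their call. The log2 fold change of ETV4 ranged from 1.65 to 1.79, that of ETV5 from 0.97 to 1.08, that of ETV1 from 0.28 to 0.38, that of ELK4 from 0.32 to 0.43 and that of ELK1 from -0.23 to -0.14. CIC stayed below 0 (-0.15) but was not called at an adjusted p under 0.01, nor with the GC trend removed (-0.073), and ranged from -0.17 to -0.094 with 1 library left out. The uncalled members changed sign: under upper-quartile factors ETV3 was at -0.017 and ELK3 at -0.036, ELK3 was at -0.0029 with library totals only and at -0.0019 with a filter of 1 CPM in 3 libraries, and with the GC trend removed ERF was at 0.030, ELK3 at -0.028 and SRF at 0.045. With 1 library left out ERF ranged from -0.079 to 0.0045, ETV3 from -0.00077 to 0.062 and ELK3 from -0.0076 to 0.038, and SRF from -0.046 to 0.027. At an adjusted p under 0.01 there were 1871 calls over all genes in place of 3835, 2 among the other ETS genes in place of 4 and 3 among the partners and regulators in place of 5. With 1 library left out these counts ranged from 2163 to 4890, from 2 to 4 and from 3 to 5. Over all genes there were 2163, 2213 and 2206 calls without DMSO replicates 1, 2 and 3. Without GSK-A1 replicates 1, 2 and 3 there were 2674, 4890 and 3805, so the count rose when GSK-A1 replicate 2, the library furthest from its group, was left out. Under upper-quartile factors 33.3% of calls over all genes were higher, against 52.3% under TMM. Whether the replicate numbers pair the libraries was not settled. Deviations of same-numbered libraries correlated at only 0.011 to 0.032 across genes, but 5 of 6 libraries correlated best with their own number. The replicate block gave 4127 calls and changed no call of a member. Of 458 further values for 29 other named genes, 427 kept direction and call, 29 lost the call and 2 changed sign. Not counted, for want of a value, were ETV7 and PLAU in DESeq2 and under the filter of 1 CPM in 3 libraries. The same holds for ETV7 without DMSO replicate 1 and without DMSO replicate 2.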

Other observations

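Of 20 listed partners and regulators of the members, which include corepressors and the ubiquitin ligase COP1 that degrades PEA3 proteins, 19 were tested, 3 were called higher and 2 lower, and the median log2 difference was -0.0085. The 5 calls are near the share over all tested genes, 22.9% (12.0% higher and 10.9% lower), so the count is no result about the list, and the values below describe single genes. ATXN1 and ATXN1L encode partners of CIC. ATXN1 stood at 35.0, 34.1 and 35.6 CPM with DMSO and at 42.5, 42.2 and 41.6 CPM with GSK-A1 (log2 fold change 0.27 ± 0.04, SE; edgeR adjusted p = 4.69e-04). ATXN1L rose from 49.3 ± 1.2 to 58.4 ± 5.0 CPM (SD, n = 3; 0.25 ± 0.05; edgeR adjusted p = 0.00429), with GSK-A1 replicate 2 the lowest treated library at 52.8 CPM.

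MRTFA, an actin-regulated cofactor that competes with ternary complex factors for SRF, rose by 0.14 ± 0.04 (log2, SE; edgeR adjusted p = 0.0263), a call lost in 5 of the 6 fits that left out 1 library. HDAC1, a histone deacetylase of corepressor complexes, fell from 246.6 ± 4.4 to 220.2 ± 4.8 CPM (SD, n = 3; log2 -0.16 ± 0.03; edgeR adjusted p = 0.00336). MAPK3, which encodes a kinase of the ERK pathway, fell by 0.14 on the log2 scale (SE 0.05; edgeR adjusted p = 0.0349), a call lost without any 1 of the DMSO libraries or GSK-A1 replicate 1, in DESeq2 and with the GC trend removed.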
